A study of Homo sapiens with 30 samples.

Results

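The 39 genes of the 4 human HOX clusters were followed by RNA sequencing in Rh30 cells, a long-established cell line from alveolar rhabdomyosarcoma with the PAX3-FOXO1 fusion gene. Members were all genes whose symbol is HOXA, HOXB, HOXC or HOXD and a number, which gave 11 HOXA, 10 HOXB, 9 HOXC and 9 HOXD genes among the 23261 genes of the clone table and the 23262 genes of each time-course table. The 30 samples form 15 groups of 2. The clones 4, 10, 11 and 12 are Rh30 cells labelled PAX3-FOXO1-FKBP, and parental Rh30 cells are the group they were set against, with 2 libraries in each group. FKBP is a tag that lets the small molecule dTAG direct the tagged protein to degradation. A PAX3-FOXO1-FKBP line and a FOXO1-FKBP line were each kept in DMSO or given 500 nM dTAG for 2, 6, 24 or 72 h. The clones and parental cells are labelled as DMSO-treated, so all groups outside the dTAG times share that vehicle. All groups are labelled as Rh30 cells, each numbered clone stands for 1 clone only, and which clone was used for the PAX3-FOXO1-FKBP time course is not stated in the sources used here. The series asks what the fusion transcription factor controls in these cells. dTAG acts on protein, so no transcript level here checks that the tagged protein was lost.

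HOX genes encode homeodomain transcription factors that give cells along the body axis their regional identity. The genes of a cluster lie in one row on the chromosome and are numbered by paralogue group, where low numbers mark anterior genes such as HOXA2 and high numbers mark posterior genes such as HOXD13. In embryos a cluster is opened in that order, Polycomb proteins keep its silent part closed, Trithorax proteins keep its active part open, and retinoic acid induces anterior genes. HOX proteins bind DNA together with TALE homeodomain cofactors of the PBX and MEIS families. Adult cells and cell lines usually keep a HOX pattern that reflects where in the body they came from, and limb and trunk muscle precursors use HOX genes of middle and posterior groups.

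Totals were 17746684 to 26834005 read counts per clone or parental library and 25863451.5 to 30466960 estimated counts per time-course column, each of which pools 2 samples. HOX genes together took 274.5 to 441.6 RPM, reads scaled to a common total, in the 8 clone libraries, against 385.5 and 382.4 in the parental libraries. The muscle regulators MYOD1 and MYOG and the muscle filament gene DES were detected at high levels in every library, whereas MYF5 had no counts. Summed myogenic markers lay at 178600 to 236300 normalised counts in the clone libraries, against 107300 and 107600 in the parental libraries. Of the 11 myogenic markers tested, 8, 6, 7 and 7 were higher in clones 4, 10, 11 and 12 than in parental cells and 0 were lower. Of all genes tested, 25.1% to 27.8% were called higher and 22.3% to 25.1% lower in a clone. The clone 4 and clone 10 libraries also held more of the 8 epithelial markers, with sums of 2653 and 3355 in clone 4 and 1190 and 1223 in clone 10, against 146.6 and 152.8 in parental cells, with most of the clone sums coming from the keratins KRT8 and KRT18. The 8 fibroblast markers moved unevenly: COL3A1 alone gave 20710 and 21460 in clone 10, against 461.9 and 474.3 in parental cells, COL1A1 gave 2656 and 2002 in clone 12, against 306.3 and 282.3, and PDGFRA lay at 44.05 to 209.3 in the clones, against 305.5 and 306.3. Of the 5 epithelial markers tested, 2 were called higher in clone 4 and 3 in clone 10, and 1 was lower in clone 11. Of the 7 fibroblast markers tested, 1 was higher and 2 lower for clone 4, 4 and 0 for clone 10, 1 and 2 for clone 11, and 4 and 1 for clone 12. The epithelial and fibroblast counts stand beside the same shares, 25.1% to 27.8% of all genes higher and 22.3% to 25.1% lower. In the time course the 34 B lineage and leukocyte markers of the PAX3-FOXO1-FKBP line summed to 5956 with DMSO and to 8153, 4097, 2440 and 1924 after 2, 6, 24 and 72 h, with 16, 6, 14, 15 and 14 of them at 0. FCRLA, LAPTM5 and CORO1A gave 2687, 2497 and 557 of the DMSO sum and were detected in all 10 time-course columns. The 2 h column of that line stood apart, with MS4A1 at 225.2, CD74 at 269.6, LCP1 at 454.3 and IGJ at 382.1, where each lay at 2.591 or less in the other 4 columns. The 12 T cell, myeloid and erythroid markers summed to 36.8 to 91.2 in the clone libraries, against 40.95 and 41.46 in the parental libraries. The part of these markers in the HOX results was not tested.

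A definite HOX pattern was present in Rh30 cells. HOXA7 had the highest level per kilobase of transcript in parental cells, at 972 normalised counts per kilobase, and HOXB7 came next at 436, followed by HOXB2 at 349, HOXB3 at 266, HOXA10 at 217, HOXB9 at 207, HOXC4 at 183 and HOXA3 at 172. Normalised counts here are counts scaled to a common library size, and the kilobase scale uses transcript lengths of the GENCODE annotation, which may differ from the gene models of the authors. HOXA7 and HOXB7 were also first and second in DMSO in the PAX3-FOXO1-FKBP line, at 1530 and 647 per kilobase, and in the FOXO1-FKBP line, at 1380 and 651 per kilobase. The 3 tables were scaled separately, so only the order is compared between them. Across genes within parental cells the level per kilobase did not follow position in a single direction: Spearman's rho with the paralogue number was -0.118 over the 11 HOXA genes, 0.0909 over the 10 HOXB genes, -0.433 over the 9 HOXC genes and 0.628 over the 9 HOXD genes. Genes of one cluster share libraries and are not independent replicates, so no test is attached to these values.

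Single genes of each cluster apart from HOXA were silent or nearly so. HOXB1, HOXD3 and HOXD4 had 0 counts in all 10 clone and parental libraries. HOXD1 had 0 or few counts everywhere, and HOXC8, HOXC12 and HOXD12 also stayed below the level needed for a test. These 7 genes were not tested in the clones, and the other 32 of the 39 members were. In the HOXD cluster this left an active posterior part, HOXD8 to HOXD13 without HOXD12, beside an anterior part at or near 0. HOXC12 was counted in clone 10 libraries, with 12 counts in all against 0 in the parental libraries, at least 2.49-fold higher against a floor of 3 counts per parental library. HOXD1 had 11 counts in clone 10 and 3 in parental cells, a ratio of 4.79 with an exact 95% counting interval of 1.27 to 26.7. These bounds and intervals cover counting error only.

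**Figure D1:**
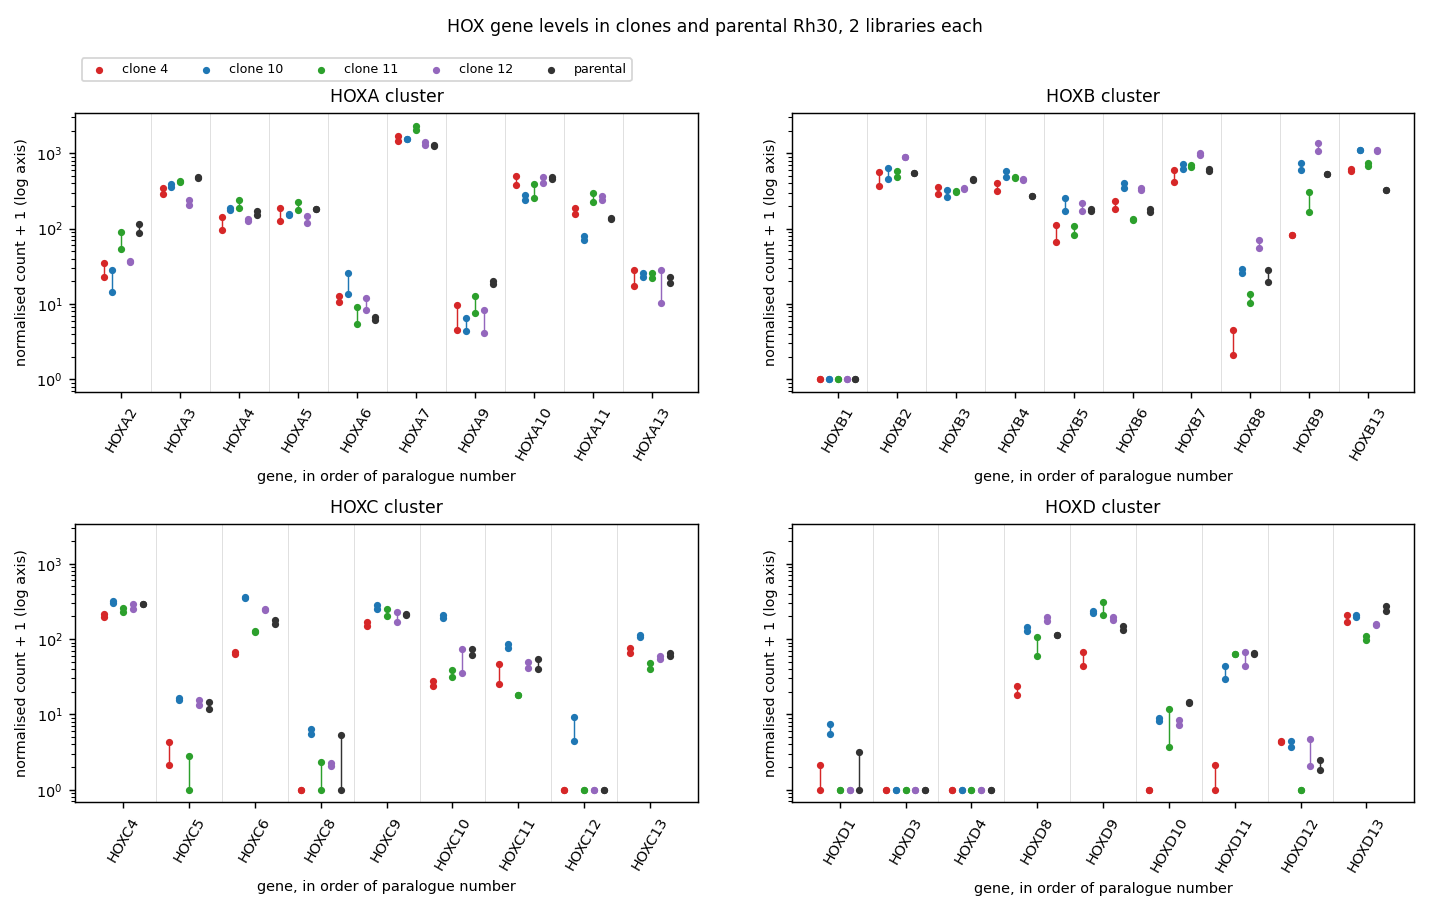
Normalised counts plus 1 (log axis) of the members shown of each cluster in every library, 1 panel per cluster, with the genes ordered by paralogue number and the clones drawn left of the parental cells. HOXA7 lies highest among the HOXA genes in every library, and HOXB1, HOXD3 and HOXD4 lie at 0.

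Against parental cells, 15 of the 16 HOX genes called in clone 4 were lower, 7 of 9 tested HOXB genes were higher in clone 12 and 4 of 7 tested HOXC genes in clone 10, while HOXB13 was higher in every clone. In clone 4, 16 of the 32 tested members passed the edgeR test (adjusted p under 0.05 by Benjamini-Hochberg, with 14175 genes tested), 1 higher and 15 lower, where 47.4% of all genes passed, 25.1% higher and 22.3% lower. In clone 10, 14 members passed, 9 higher and 5 lower, where 52.0% of all genes passed, 27.8% higher and 24.2% lower. In clone 11, 12 members passed, 5 higher and 7 lower, where 51.6% of all genes passed, 26.5% higher and 25.1% lower. In clone 12, 14 members passed, 10 higher and 4 lower, where 52.6% of all genes passed, 27.8% higher and 24.7% lower. Fewer members were called in every clone when either parental library was left out, and in clone 10 also without its first library. The share of all genes called in those fits was not set beside this, so the loss cannot be read as particular to HOX genes. With all libraries the share of HOX genes called was near that of all genes in clone 4 and below it in the other clones, while the split of directions in clone 4 was uneven. In bulk RNA, fewer cells that express a gene and less RNA per cell cannot be told apart. The median log2 change of the tested members was -0.44, 0.24, -0.33 and 0.02 in clones 4, 10, 11 and 12, against medians over all genes of 0.05, 0.05, -0.00 and 0.03. Scaled by library totals, the split of higher and lower members became 7 and 7 for clone 10, 5 and 13 for clone 11 and 7 and 7 for clone 12, and upper quartile scaling gave 7 and 7 for clone 10. Library totals moved the median of all genes to -0.13, -0.06, -0.23 and -0.19 in clones 4, 10, 11 and 12. In clone 4, 1 member was higher and 14 to 18 were lower under the 3 other scalings. The shares of all genes called higher and lower under the other scalings were not set beside these splits. The labels do not say whether the 2 libraries of a group are separate cultures, and all p-values therefore measure the spread between these libraries, which may be technical. The 2 parental libraries lay closer together than the pairs of the clones, with a chi-square per gene of 1.84 in parental cells beside 13.99 to 51.27 in the clones.

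The clones also differed from each other. An edgeR test of the 4 clone means against each other called 25 of the 32 members, where 63.5% of all genes were called. Of the members, 27 were called against parental cells in 1 or more clones, as were 84.8% of all genes. HOXB13 was called higher in all 4 clones, a pattern found in 8.4% of all genes, and no member was called lower in all 4, a pattern found in 9.5%. Opposite directions in different clones were found for 8 members, HOXA11, HOXB8, HOXB9, HOXC6, HOXC10, HOXC11, HOXD8 and HOXD9, and in 7.24% of all genes. HOXA4, HOXA5, HOXA13 and HOXC9 were among the members called against parental cells in no clone. Of these, HOXA4 (edgeR adjusted p = 0.0192) and HOXC9 (0.0316) were called in the test among the clones.

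**Figure D2:**
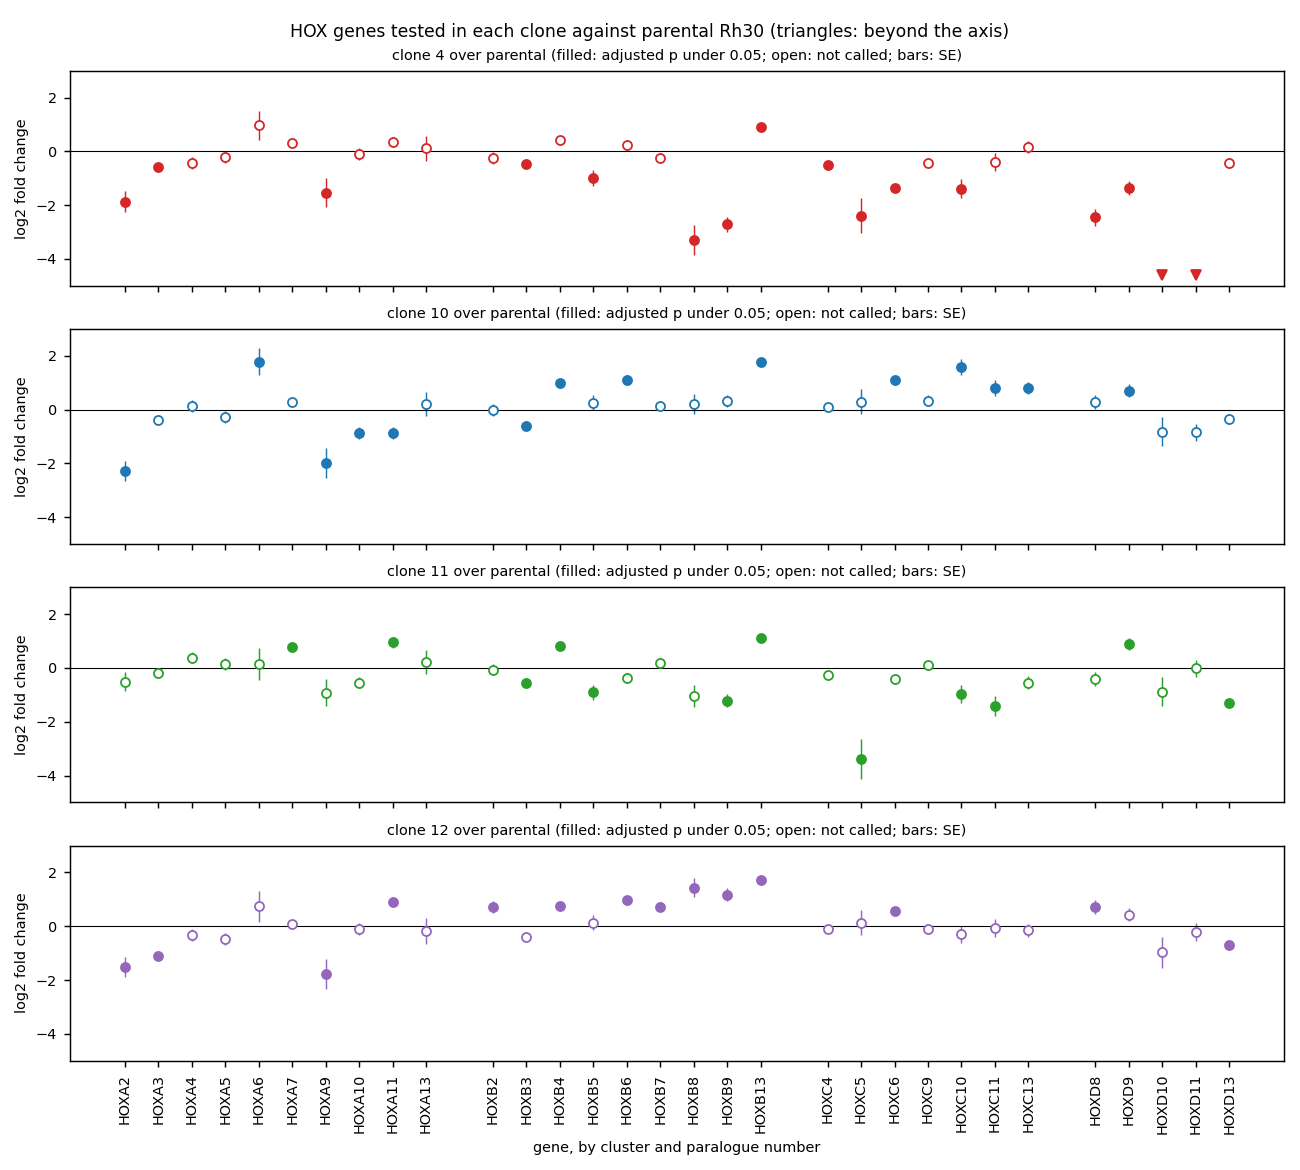
Log2 fold change of the tested members shown in each clone over parental cells, with bars for 1 SE and filled symbols for members called by edgeR. HOXD10 and HOXD11 of clone 4 lie below the axis and are drawn as triangles, and HOXB13 is filled above 0 in all 4 clones.

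In the HOXD cluster of clone 4, HOXD10 and HOXD11 were almost silent, and HOXD8 and HOXD9 were lower than in parental cells. HOXD11, which with HOXA11 patterns the forearm in mice, had 0 and 1.16 in clone 4, against 63.1 and 64.02 in parental cells. That is 1 count in clone 4 and 165 counts in parental cells, a ratio of 0.0088 with an exact 95% counting interval of 0.000222 to 0.0497 (edgeR adjusted p = 5.28e-05). HOXD10 had 0 and 0 in clone 4, against 13.1 and 13.8 in parental cells, from 0 and 35 counts, and was at least 4.0-fold lower in clone 4 against a floor of 3 counts per clone library (adjusted p = 0.00171). Both genes were silent or nearly so in both clone 4 libraries and clearly counted in both parental libraries. HOXD8 had 22.75 and 17.4 in clone 4, against 111 and 112 in parental cells (log2 fold change -2.46, SE 0.316, adjusted p = 0.000216). HOXD9 had 42.3 and 65.98 in clone 4, against 149 and 129.5 in parental cells (log2 fold change -1.37, SE 0.263, adjusted p = 0.00186). HOXD13, the digit gene at the posterior end of the cluster, had 170.1 and 207 in clone 4, against 232 and 276 in parental cells, and this difference did not pass (log2 fold change -0.43, adjusted p = 0.0734). The 4 calls held without each library in turn. The same libraries carried a raised epithelial keratin, KRT8, at 1392 and 1695 in clone 4 against 37.7 and 29.1 in parental cells, and the part of those markers here was not tested.

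The antisense gene HOXD-AS1, named HAGLR in RefSeq, lies between HOXD3 and HOXD1 and was also lower in clone 4, at 7.585 and 2.315 in clone 4, against 46.7 and 37.8 in parental cells (log2 fold change -3.04, adjusted p = 0.000665). The nearest protein-coding gene on the anterior side, MTX2, a mitochondrial import gene, had 518 and 609 in clone 4, against 559 and 527 in parental cells (log2 fold change 0.05, adjusted p = 0.82). On the posterior side KIAA1715, named LNPK in RefSeq, an endoplasmic reticulum gene, had 259 and 242 in clone 4, against 354 and 376 in parental cells (log2 fold change -0.54, adjusted p = 0.0172) and was called lower. EVX2, the homeobox gene next to HOXD13, had 0 counts in every library. The libraries were not stated to keep strand, so reads of HOXD-AS1 and of genes it overlaps cannot be told apart. Within the row from KIAA1715 to MTX2, clone 4 was near 0 at HOXD11 and HOXD10 and lower than parental cells at HOXD9 and HOXD8, between HOXD13 and MTX2, which had over 170 normalised counts in each library of both groups and were not called. HOXD12 was near 0 in parental cells too, with 6 counts in clone 4 and 3 in parental cells.

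**Figure D3:**
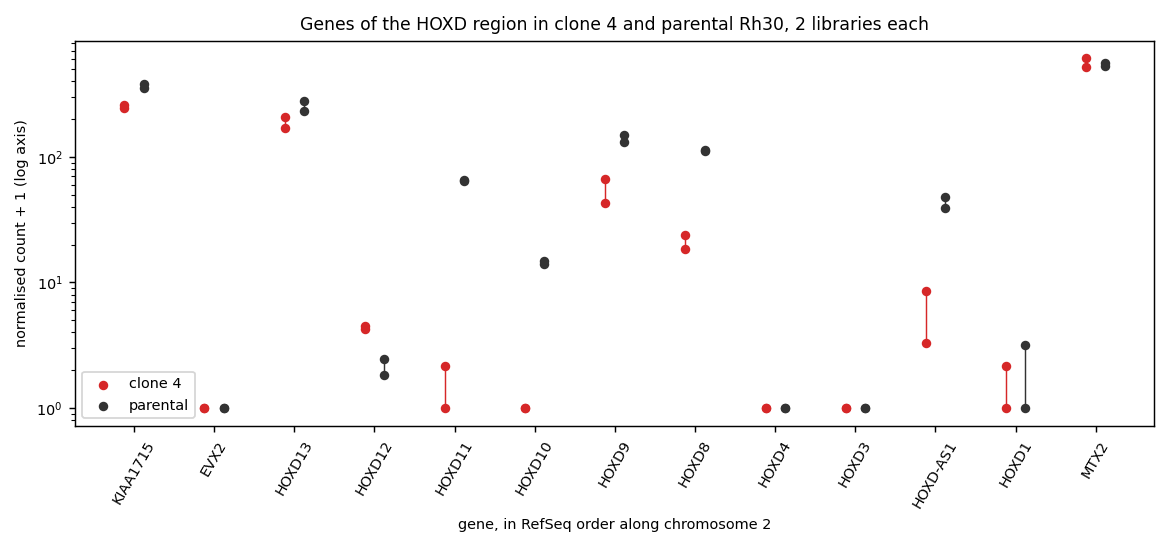
Normalised counts of the HOXD genes and their neighbours in RefSeq gene order, from KIAA1715 to MTX2, in the 2 libraries of clone 4 and the 2 of parental cells. HOXD10 and HOXD11 lie at or near 0 in clone 4, while HOXD13 and MTX2 lie far above 0 in both groups.

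In clone 4, HOXD11 and HOXD10 were near silent and HOXD8 was lower. HOXD13 lay below parental cells there too, without a call (log2 fold change -0.43). The start regions of these 4 HOXD genes are shown to compare them. Each is the RefSeq window from 250 bases before to 50 bases after a gene's start on GRCh38.p14, printed 5′ to 3′ on the gene's own plus strand, with CG dinucleotides in capitals. The windows are chr2:176092471-176092770 for HOXD13, chr2:176107030-176107329 for HOXD11, chr2:176116528-176116827 for HOXD10 and chr2:176129455-176129754 for HOXD8.
HOXD13: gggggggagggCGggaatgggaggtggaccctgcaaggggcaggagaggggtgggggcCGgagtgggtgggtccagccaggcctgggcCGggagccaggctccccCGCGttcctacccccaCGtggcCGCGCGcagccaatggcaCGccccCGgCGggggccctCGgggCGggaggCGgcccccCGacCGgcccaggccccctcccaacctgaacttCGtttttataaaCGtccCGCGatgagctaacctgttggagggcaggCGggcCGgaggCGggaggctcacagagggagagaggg
HOXD11: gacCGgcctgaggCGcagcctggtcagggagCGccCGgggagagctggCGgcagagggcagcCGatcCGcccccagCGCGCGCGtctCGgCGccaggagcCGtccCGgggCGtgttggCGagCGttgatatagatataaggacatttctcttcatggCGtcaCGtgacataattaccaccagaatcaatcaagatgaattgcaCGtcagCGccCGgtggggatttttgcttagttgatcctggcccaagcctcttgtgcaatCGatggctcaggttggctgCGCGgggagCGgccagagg
HOXD10: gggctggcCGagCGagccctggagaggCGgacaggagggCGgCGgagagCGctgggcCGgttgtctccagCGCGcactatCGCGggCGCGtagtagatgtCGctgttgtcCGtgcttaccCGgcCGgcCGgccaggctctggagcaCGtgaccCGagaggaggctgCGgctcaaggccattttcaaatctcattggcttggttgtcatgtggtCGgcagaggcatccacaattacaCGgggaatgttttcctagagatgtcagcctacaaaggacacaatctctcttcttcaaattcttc
HOXD8: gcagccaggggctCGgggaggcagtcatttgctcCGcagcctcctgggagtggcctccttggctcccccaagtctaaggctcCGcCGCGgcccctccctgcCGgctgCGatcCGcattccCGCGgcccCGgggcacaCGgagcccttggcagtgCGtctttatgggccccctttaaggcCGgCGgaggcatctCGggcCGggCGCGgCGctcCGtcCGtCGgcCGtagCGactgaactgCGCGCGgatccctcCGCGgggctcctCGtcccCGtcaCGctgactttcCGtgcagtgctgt

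All 4 windows were rich in CG, with 24 CG dinucleotides in HOXD13, 27 in HOXD11, 23 in HOXD10 and 34 in HOXD8, beside a median of 14 over 35116 RefSeq promoter windows of the same length. At least as many were found in 33.9%, 28.2%, 35.8% and 15.6% of all windows. The window of the gene that was not called thus had a CG number between those of the near silent genes. RefSeq windows were at hand for 20 of the 39 members, whose windows, taking the one with the most CG of each gene, held 4 to 44 CG dinucleotides with a median of 24.5. The homeodomain core motif TAATTA, searched on both strands, was found in 2 of these 20 genes and in 4.84% of all windows, and HOXD11 was 1 of the 2. The forkhead motif GTAAACA, also searched on both strands, was found in 2 of the 20 genes, HOXC4 and HOXC5, which share 1 identical window, and in 3.42% of all windows, and the motif matches do not overlap. The HOX numbers count genes with a match in any of their windows, 27 windows for the 20 genes, whereas the percentages are of single windows. A match is a description of letters, not of binding.

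In clones 10, 11 and 12, 1 or 2 of the 5 tested HOXD genes were called in each, beside 51.6% to 52.6% of all genes. HOXD8 had 126.5 and 143 for clone 10, 106 and 58.7 for clone 11 and 197 and 173 for clone 12, and only the higher value of clone 12 was called among these 3 (log2 fold change 0.73, SE 0.256, adjusted p = 0.0323). HOXD9 had 234 and 219 for clone 10, 306 and 208 for clone 11 and 179 and 198 for clone 12. It was higher in clone 10 (log2 fold change 0.70, adjusted p = 0.0277) and in clone 11 (log2 fold change 0.89, adjusted p = 0.00887), so that it lay below parental cells in clone 4 and above them in these clones. HOXD10 was low in all clones, at 7.28 and 7.89 for clone 10, 10.8 and 2.67 for clone 11 and 7.39 and 6.28 for clone 12, without a call. HOXD11 had 28.2 and 42.8 for clone 10, 62.7 and 62.7 for clone 11 and 43.1 and 65.95 for clone 12, again without a call. In clone 10 both HOXD11 values lay below the parental ones, with a log2 fold change of -0.85. Its edgeR adjusted p of 0.0507 was just above the threshold. Clone 11 was the clone with the lowest HOXD13, at 109 and 94.8 in clone 11, against 232 and 276 in parental cells (log2 fold change -1.31, SE 0.191, adjusted p = 0.000369), and clone 12 had 154 and 157 (log2 fold change -0.71, adjusted p = 0.00836), while clone 10 had 196 and 205 and was not called. Calls lost when single libraries were left out were HOXD8 in clone 12 without either parental library, the second clone 10 library or either clone 12 library (adjusted p up to 0.179), and under scaling by library totals, HOXD9 in clone 10 without any 1 of the parental, clone 10 and clone 12 libraries (up to 0.169) and under upper quartile or library-total scaling, HOXD9 in clone 11 without the second parental or the first clone 11 library (up to 0.111) and HOXD13 in clone 12 without the second parental library (up to 0.0976).

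At the posterior end of the HOXB cluster the clones differed from parental cells in both directions. HOXB13, a regulator of prostate and tail development that lies apart from the rest of its cluster, had 576.5 and 626 for clone 4, 1099 and 1111 for clone 10, 676 and 739.6 for clone 11, 1061 and 1092 for clone 12 and 328 and 319 for parental cells. Every clone library lay above both parental libraries. The log2 fold change was 0.89 (SE 0.133, adjusted p = 0.000465) for clone 4, 1.77 (SE 0.133, adjusted p = 1.11e-05) for clone 10, 1.13 (SE 0.133, adjusted p = 0.000149) for clone 11 and 1.73 (SE 0.133, adjusted p = 1.79e-05) for clone 12, and it was called without each library in turn. HOXB9, which patterns the thoracic skeleton in mice, had 80.2 and 82.2 for clone 4, 599.7 and 738 for clone 10, 163 and 302 for clone 11, 1061 and 1356 for clone 12 and 531.5 and 538 for parental cells. It was lower in clone 4 (log2 fold change -2.72, SE 0.273, adjusted p = 5.92e-05) and in clone 11 (log2 fold change -1.22, SE 0.248, adjusted p = 0.00217), higher in clone 12 (log2 fold change 1.18, SE 0.237, adjusted p = 0.00206) and not called in clone 10. The clone 4 and clone 12 libraries did not overlap with each other or with the parental ones. HOXB8, its neighbour, had 1.08 and 3.47 for clone 4, 28.2 and 24.8 for clone 10, 12.55 and 9.345 for clone 11, 54.2 and 70.1 for clone 12 and 18.8 and 26.9 for parental cells. HOXB8 was lower in clone 4 (log2 fold change -3.29, SE 0.555, adjusted p = 0.000903) and higher in clone 12 (log2 fold change 1.44, SE 0.344, adjusted p = 0.00519), the same directions as HOXB9. The HOXB8 call in clone 12 was lost without the first parental or the second clone 12 library (adjusted p up to 0.0692), and the other calls of these 3 genes held without each library.

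The middle of the HOXB cluster was higher in clone 12 than in parental cells, from HOXB2 to HOXB7, apart from HOXB3 and HOXB5. HOXB7, the most abundant HOXB gene per kilobase, had 420.4 and 593 for clone 4, 613 and 709 for clone 10, 701 and 658 for clone 11, 955 and 1021 for clone 12 and 586 and 609.6 for parental cells and was called in clone 12 (log2 fold change 0.72, SE 0.17, adjusted p = 0.00464). HOXB2, a hindbrain segment gene, had 362 and 561 for clone 4, 451 and 629 for clone 10, 477 and 573 for clone 11, 898 and 903 for clone 12 and 545.5 and 545 for parental cells and was called in clone 12 (log2 fold change 0.72, SE 0.215, adjusted p = 0.0153). HOXB6 had 179.9 and 228 for clone 4, 346 and 404.5 for clone 10, 131 and 135 for clone 11, 347.5 and 329 for clone 12 and 183.5 and 163 for parental cells. It was higher in clone 10 (log2 fold change 1.11, SE 0.178, adjusted p = 0.000565) and clone 12 (log2 fold change 0.96, SE 0.178, adjusted p = 0.00126), and its clone 11 values were not called. HOXB4, known for expanding blood stem cells, had 314 and 402 for clone 4, 481 and 581.5 for clone 10, 477 and 474 for clone 11, 459.7 and 447 for clone 12 and 269.5 and 269 for parental cells. All 8 clone libraries lay above the parental ones, and the difference was called in clone 10 (log2 fold change 0.98, adjusted p = 0.000741), clone 11 (0.82, 0.00201) and clone 12 (0.75, 0.00328) but not in clone 4 (0.41, 0.0609).

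HOXB3 and HOXB5 were not called in clone 12 and were lower in other clones. HOXB5 had 65.01 and 111 for clone 4, 171 and 252 for clone 10, 81.6 and 108 for clone 11, 169 and 216 for clone 12 and 180.2 and 172 for parental cells, and was lower in clone 4 (log2 fold change -1.0, SE 0.288, adjusted p = 0.0149) and clone 11 (log2 fold change -0.90, SE 0.286, adjusted p = 0.0215). HOXB3 had 359.7 and 288 for clone 4, 325 and 263 for clone 10, 310.1 and 300.4 for clone 11, 347.5 and 337 for clone 12 and 461 and 434 for parental cells. It was lower in clone 4 (log2 fold change -0.46, SE 0.167, adjusted p = 0.0395), clone 10 (log2 fold change -0.60, SE 0.168, adjusted p = 0.0112) and clone 11 (log2 fold change -0.55, SE 0.168, adjusted p = 0.0178), and in clone 12 its log2 fold change of -0.39 was not called. All 8 clone libraries lay below both parental libraries for HOXB3. Long HOXB3 transcripts run across neighbouring genes, so its count may hold reads of others. Without either 1 of the parental libraries the calls of HOXB3 in clones 4, 10 and 11 (adjusted p up to 0.19, 0.0818 and 0.112), of HOXB5 in clones 4 and 11 (up to 0.0762 and 0.11) and of HOXB2 in clone 12 (up to 0.0815) were lost. So were those of HOXB3 in clones 4 and 10 without the second library of the clone, of HOXB5 in clones 4 and 11 without the first library of the clone, and of HOXB2 without either clone 12 library or under library-total scaling. In clone 12, 7 of the 9 tested HOXB genes were higher and 0 lower, where 27.8% of all genes were higher and 24.7% lower. Their median log2 change was 0.75. In clone 4, 1 HOXB gene was higher and 4 lower, with a median of -0.24, where 25.1% of all genes were higher and 22.3% lower. The HOXB share of all HOX counts was 40.1% and 42.0% for clone 4, 46.7% and 49.4% for clone 10, 36.1% and 41.0% for clone 11, 56.1% and 57.8% for clone 12 and 41.3% and 41.2% in parental cells.

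Several HOXC genes were higher in clone 10, and several were lower in clones 4 and 11, while HOXC9 was called in no clone. HOXC10, a lumbar gene used by hindlimb motor neurons, had 27.1 and 23.15 for clone 4, 188 and 209.6 for clone 10, 30.5 and 37.4 for clone 11, 34.5 and 72.2 for clone 12 and 72.9 and 59.65 for parental cells. Both clone 10 libraries lay above all others. It was higher in clone 10 (log2 fold change 1.59, SE 0.297, adjusted p = 0.00139) and lower in clone 4 (log2 fold change -1.39, SE 0.347, adjusted p = 0.00739) and clone 11 (log2 fold change -0.98, SE 0.334, adjusted p = 0.0298). HOXC6, a thoracic gene, had 62.85 and 67.1 for clone 4, 347 and 361 for clone 10, 125.5 and 121.5 for clone 11, 249 and 243 for clone 12 and 176 and 156 for parental cells. The 5 groups did not overlap for this gene, whose RefSeq gene start is also that of HOXC4 and HOXC5. HOXC6 was higher in clone 10 (log2 fold change 1.09, SE 0.163, adjusted p = 0.000398) and clone 12 (log2 fold change 0.57, SE 0.165, adjusted p = 0.0138), lower in clone 4 (log2 fold change -1.35, SE 0.18, adjusted p = 0.000265), and in clone 11 its log2 fold change of -0.42 was not called (adjusted p = 0.0562). HOXC13, a hair follicle gene, had 63.9 and 74.1 for clone 4, 111 and 106 for clone 10, 38.5 and 46.7 for clone 11, 57.9 and 53.4 for clone 12 and 58.97 and 64.75 for parental cells and was called in clone 10 (log2 fold change 0.81, SE 0.225, adjusted p = 0.0116). HOXC11 had 45.5 and 24.3 for clone 4, 85.55 and 75.5 for clone 10, 17.03 and 17.35 for clone 11, 48.1 and 40.8 for clone 12 and 53.2 and 39.3 for parental cells. It was higher in clone 10 (log2 fold change 0.80, adjusted p = 0.0478) and lower in clone 11 (log2 fold change -1.42, SE 0.362, adjusted p = 0.00738).

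The anterior HOXC genes were lower in clone 4. HOXC4 had 194 and 214 for clone 4, 303 and 318 for clone 10, 255 and 226 for clone 11, 253 and 292 for clone 12 and 287.5 and 295 for parental cells and was lower in clone 4 (log2 fold change -0.51, SE 0.163, adjusted p = 0.023). HOXC5 was close to the detection limit, with 3.25 and 1.16 for clone 4, 15.5 and 14.65 for clone 10, 1.79 and 0 for clone 11, 12.3 and 14.7 for clone 12 and 10.65 and 13.8 for parental cells. It was lower in clone 4 (log2 fold change -2.39, SE 0.655, adjusted p = 0.0117) and in clone 11, where 2 counts stood against 32 in parental cells, a ratio of 0.087 with an exact 95% counting interval of 0.0101 to 0.341 (adjusted p = 0.0034). HOXC9 had 146 and 165.5 for clone 4, 248.5 and 282 for clone 10, 204 and 249.6 for clone 11, 166 and 226 for clone 12 and 215 and 207 for parental cells, without a call in any clone. HOXC8 had no counts in clone 4 and at most 5.46 normalised counts in any library. HOXC4 and HOXC5 have the same RefSeq start window, chr12:54016638-54016937 on the plus strand of GRCh38.p14, shown here because reads at such a shared start cannot be given to one gene. The RefSeq gene start of HOXC6 is the same base, 54016888, so this limit holds for HOXC6 too.
HOXC4 and HOXC5: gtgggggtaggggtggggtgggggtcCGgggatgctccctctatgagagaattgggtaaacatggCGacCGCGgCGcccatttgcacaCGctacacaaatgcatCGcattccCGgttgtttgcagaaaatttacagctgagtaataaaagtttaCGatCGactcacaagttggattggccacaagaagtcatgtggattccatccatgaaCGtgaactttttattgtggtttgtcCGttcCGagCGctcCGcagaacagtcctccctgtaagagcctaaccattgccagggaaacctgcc

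This window holds 15 CG dinucleotides (capitals) and 1 GTAAACA. Calls among the HOXC genes that were lost when 1 library was left out were HOXC4 in clone 4 without either parental library or the first clone 4 library (adjusted p up to 0.129), HOXC5 in clone 4 without the second parental or the second clone 4 library (up to 0.0769), HOXC10 in clone 4 and HOXC11 in clone 11 without the first parental library (up to 0.0509 and 0.0626), and HOXC10 in clone 11, HOXC13 in clone 10 and HOXC6 in clone 12 without any 1 of the 4 libraries compared (up to 0.149, 0.101 and 0.14). HOXC11 in clone 10 was lost without any 1 library of clones 10, 11 and 12 and parental cells (up to 0.282) and in DESeq2 and each other scaling, and HOXC6 in clone 12 under library-total scaling and without the filter on low counts. Of the 7 tested HOXC genes, 4 were higher and 0 lower in clone 10, with a median log2 change of 0.80, against 0 higher and 4 lower for clone 4, with a median of -0.51, 0 higher and 3 lower for clone 11, and 1 higher and 0 lower in clone 12. Of all genes, 25.1% to 27.8% were higher and 22.3% to 25.1% lower in a clone.

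In the HOXA cluster the most abundant gene of the family stood out in clone 11. HOXA7 had 1432 and 1683 for clone 4, 1534 and 1561 for clone 10, 2313 and 2049 for clone 11, 1412 and 1278 for clone 12 and 1256 and 1272 for parental cells and was called in clone 11 (log2 fold change 0.79, SE 0.133, adjusted p = 0.000773). HOXA11, partner of HOXD11 in the limb, had 187.5 and 156 for clone 4, 70.1 and 77.75 for clone 10, 297 and 224 for clone 11, 267 and 241 for clone 12 and 133 and 137.5 for parental cells. Both clone 10 libraries lay below the parental ones and all clone 4, 11 and 12 libraries above them. HOXA11 was lower in clone 10 (log2 fold change -0.87, SE 0.21, adjusted p = 0.00547), higher in clone 11 (log2 fold change 0.95, SE 0.196, adjusted p = 0.00231) and clone 12 (log2 fold change 0.91, SE 0.197, adjusted p = 0.00305) and not called in clone 4. HOXA10, which acts in uterus and blood development, had 380.3 and 495.5 for clone 4, 238 and 279.5 for clone 10, 393 and 252 for clone 11, 399 and 486 for clone 12 and 484 and 461 for parental cells and was called in clone 10 (log2 fold change -0.87, SE 0.221, adjusted p = 0.00732). HOXA9, a regulator of blood progenitors, was low, at 8.67 and 3.47 for clone 4, 5.46 and 3.38 for clone 10, 11.65 and 6.675 for clone 11, 7.39 and 3.14 for clone 12 and 17.2 and 18.9 for parental cells. Its lower values passed in clone 4 (log2 fold change -1.54, adjusted p = 0.0352), clone 10 (-1.97, 0.0122) and clone 12 (-1.79, 0.0194). HOXA13, the posterior limb gene, had 27.1 and 16.2 for clone 4, 21.8 and 24.8 for clone 10, 25.1 and 21.4 for clone 11, 27.1 and 9.42 for clone 12 and 22.1 and 18.2 for parental cells and was called in no clone.

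The anterior genes HOXA2 and HOXA3 were lower in several clones. HOXA2, which patterns the second branchial arch and the hindbrain, had 21.7 and 33.6 for clone 4, 27.3 and 13.5 for clone 10, 88.7 and 52.1 for clone 11, 34.5 and 36.6 for clone 12 and 115.5 and 87.3 for parental cells. All libraries of clones 4, 10 and 12 lay below both parental libraries. HOXA2 was lower in clone 4 (log2 fold change -1.87, SE 0.379, adjusted p = 0.00243), clone 10 (log2 fold change -2.28, SE 0.387, adjusted p = 0.00081) and clone 12 (log2 fold change -1.50, SE 0.368, adjusted p = 0.00582), calls that held without each library, and was not called in clone 11. HOXA3, a pharyngeal arch gene needed for the thymus, had 342 and 289 for clone 4, 386 and 352 for clone 10, 409 and 427 for clone 11, 206 and 242 for clone 12 and 482 and 470 for parental cells. It was lower in clone 4 (log2 fold change -0.59, SE 0.157, adjusted p = 0.01) and clone 12 (log2 fold change -1.09, SE 0.16, adjusted p = 0.000366). HOXA3 also has long transcripts across its neighbours, from 7 RefSeq start windows, so its count may hold reads of HOXA4 to HOXA6. HOXA6 had 9.75 and 11.6 for clone 4, 24.6 and 12.4 for clone 10, 4.48 and 8.01 for clone 11, 11.1 and 7.33 for clone 12 and 5.73 and 5.09 for parental cells and was called in clone 10 (log2 fold change 1.78, SE 0.498, adjusted p = 0.012). HOXA4 lay between 95.4 and 236.3 and HOXA5 between 118.3 and 226.8 over the 10 libraries, with parental pairs of 151.5 and 172 for HOXA4 and 182 and 183 for HOXA5, and neither was called. Calls lost when 1 library was left out were HOXA3 in clone 4 without either parental library (adjusted p up to 0.0736), HOXA9 in clone 4 and clone 12 without either parental library or the second library of the clone (up to 0.179 and 0.146), HOXA9 in clone 10 without the second parental or the second clone 10 library (up to 0.0773), HOXA6 in clone 10 without either parental library or the first clone 10 library (up to 0.164) and HOXA10 in clone 10 without the first clone 10 library (up to 0.061). DESeq2 did not call HOXA9 in clones 4, 10 and 12, nor HOXA6 in clone 10.

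By position, no range of paralogue groups was called in 1 direction in all clones. The counts below stand beside 25.1% to 27.8% of all genes called higher and 22.3% to 25.1% called lower in a clone. The 8 tested genes of groups 1 to 4 had 0 higher and 4 lower for clone 4, 1 and 2 for clone 10, 1 and 1 for clone 11, and 2 and 2 for clone 12. The 10 genes of groups 5 to 8 had 0 higher and 5 lower for clone 4, 3 and 0 for clone 10, 1 and 2 for clone 11, and 5 and 0 for clone 12. The 14 genes of groups 9 to 13 had 1 higher and 6 lower for clone 4, 5 and 3 for clone 10, 3 and 4 for clone 11, and 3 and 2 for clone 12. Median log2 changes from groups 1 to 4 to groups 9 to 13 were -0.46, -0.62 and -0.43 for clone 4, 0.04, 0.28 and 0.26 for clone 10, -0.12, -0.40 and -0.55 for clone 11 and -0.22, 0.65 and -0.13 for clone 12. Differences between positions were not tested.

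Little of the HOX pattern differed from DMSO when PAX3-FOXO1-FKBP cells were given dTAG, with log2 changes of -0.83 to 0.67. None of the 25 members with a mean of at least 50 normalised counts differed 2-fold from DMSO at 2, 6, 24 or 72 h, where 0.657%, 1.84%, 3.10% and 6.48% of all genes of that level did. In the FOXO1-FKBP line, where dTAG acts on tagged wild-type FOXO1, 0 of 24 members did at any time, where 0.0751%, 0.0584%, 0.209% and 0.384% of all genes did. At 2 h the PAX3-FOXO1-FKBP column carried the raised B lineage markers given above, and the other 3 times gave no member at 2-fold either. Each time-course column pools 2 samples, so these fold changes have no replicate check. Over all genes the changes also went with transcript length and GC content, and the values given are not corrected for this. Correlations were strongest at 72 h in the FOXO1-FKBP line (rho -0.334 with length, 0.474 with GC). In the PAX3-FOXO1-FKBP line they were strongest at 2 h (-0.209 and -0.157). Summed HOX genes took 416.7, 422.7, 436, 394.5 and 395.3 in DMSO and at 2, 6, 24 and 72 h in the PAX3-FOXO1-FKBP line, and 366.9, 359.9, 376.4, 366.7 and 390.1 RPM in the FOXO1-FKBP line. The median log2 change of the members was 0.00, 0.03, -0.14 and -0.03 at the 4 times in the PAX3-FOXO1-FKBP line, beside 0.02, 0.01, 0.01 and 0.00 over all genes. In the FOXO1-FKBP line it was -0.09, 0.06, -0.02 and 0.09, beside -0.00, -0.00, -0.00 and 0.03. By cluster, the median change at 72 h in the PAX3-FOXO1-FKBP line was -0.30 for 8 HOXA genes, -0.08 for 8 HOXB genes, 0.09 for 6 HOXC genes and 0.17 for 3 HOXD genes. Myogenic markers summed to 176700 in DMSO and 190700, 201000, 279600 and 380000 at the 4 times in the same columns. In the trend test 6 of 11 rose, where 2.41% of all genes did.

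**Figure D4:**
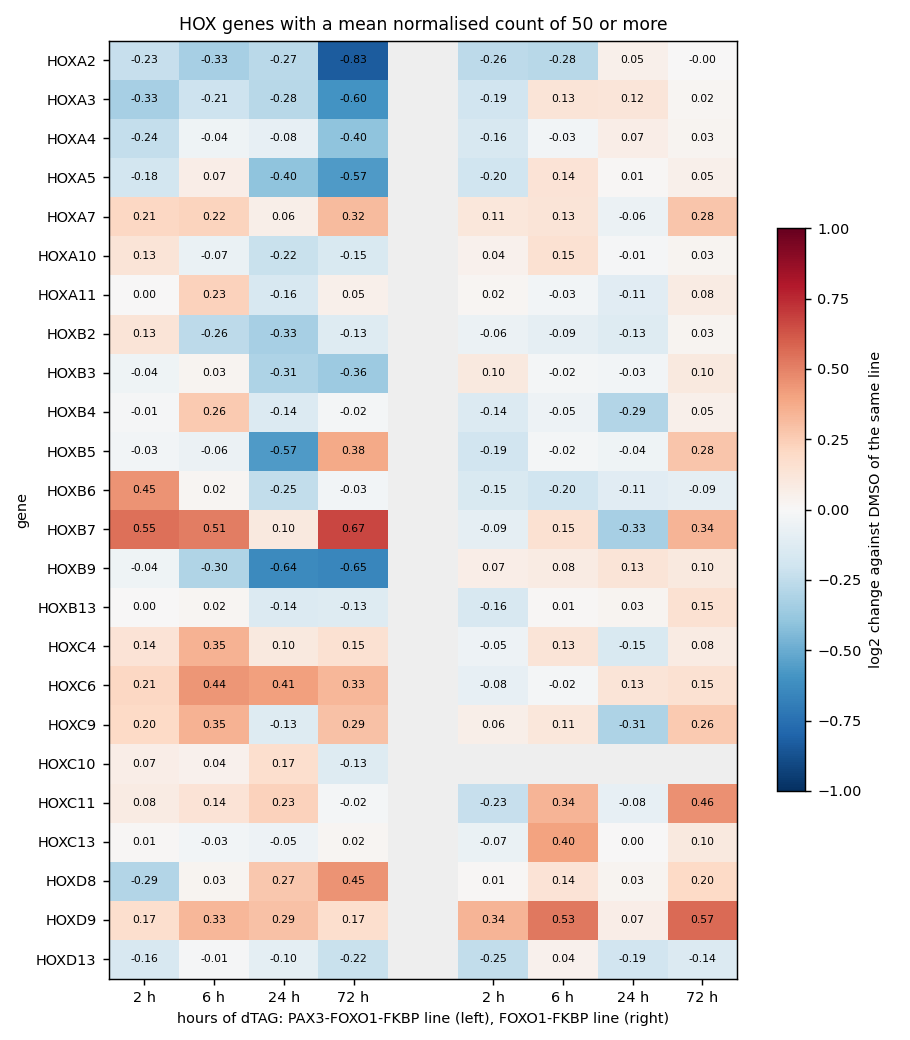
Log2 change against DMSO of 24 of the 25 members with a mean of at least 50 in the PAX3-FOXO1-FKBP line, at 4 times in both lines, as a heat map. No cell reaches a change of 2-fold, and HOXC10 is grey in the FOXO1-FKBP line, where its mean was below 50.

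A trend over log2 of hours plus 1 was then tested with edgeR over the 5 columns of each line. The columns are pooled, so these p-values reflect scatter about a line and hold no replicate error. In the PAX3-FOXO1-FKBP line 1 of 34 tested members passed, where 4.54% of all genes passed, 2.41% with a rise and 2.13% with a fall. The member was HOXB9, which fell, with 578, 564, 470.4, 369.5 and 367 normalised counts with DMSO and after 2, 6, 24 and 72 h (slope -0.123 per unit of log2 hours, adjusted p = 0.0443, DESeq2 adjusted p = 0.00726). Its log2 changes were -0.04, -0.30, -0.64 and -0.65, with the 24 and 72 h values nearly equal. In the FOXO1-FKBP line HOXB9 had 262, 275, 277, 286.5 and 281 in the same order (slope 0.0139, adjusted p = 0.942). The difference in slope between the lines was -0.139 with an edgeR adjusted p of 0.0565, which did not pass, and with a DESeq2 adjusted p of 0.0217. The HOXB9 trend was lost when the 2 h (adjusted p = 0.108), 6 h (0.0875), 72 h (0.177) or DMSO column (0.243) was left out, and kept without the 24 h column (0.0394). In the clones HOXB9 had moved both ways against parental cells, as given above. In the FOXO1-FKBP line 0 of 31 tested members passed, where 0.00% of all genes passed. At an unadjusted p under 0.05, the counts were 0 members and 640 of all genes in that line, with 0 members called by DESeq2, and 6 members and 2439 genes in the PAX3-FOXO1-FKBP line. The difference in slope was called for 0 of 34 members by edgeR, where 2.01% of all genes passed, 1.11% higher and 0.903% lower, and for 1 by DESeq2, with 4 members and 1829 genes at an unadjusted p under 0.05.

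HOXA2 to HOXA5 lay below DMSO at 72 h in the PAX3-FOXO1-FKBP line, by less than 2-fold and without a call. Values are given in the order DMSO, 2, 6, 24 and 72 h, for the PAX3-FOXO1-FKBP line against the FOXO1-FKBP line, whose tables were scaled separately, so that levels are compared within a line. HOXA2 had 143, 121, 113.5, 118.5 and 79.9, against 112, 92.97, 92.2, 116.5 and 112. HOXA2 at 72 h lay furthest below DMSO of the 25 members with a mean of at least 50, at a log2 change of -0.83, without a call in the trend (adjusted p = 0.261). HOXA3 had 825, 658, 713, 679 and 545, against 504, 443, 553, 546 and 511. HOXA4 had 276, 234, 268, 261 and 209, against 183, 164, 179, 193 and 187. HOXA5, an axial and lung gene, had 334.5, 295, 351, 254 and 225, against 278, 242, 306, 279.5 and 287. HOXA2, HOXA3 and HOXA5 had unadjusted p-values of 0.0399, 0.0316 and 0.0401 in the PAX3-FOXO1-FKBP line, and none passed after adjustment (0.261, 0.234 and 0.262). HOXA7 had 1990, 2298, 2321, 2077 and 2484, against 1801, 1940, 1972, 1723 and 2190. HOXA10 had 460.1, 503, 437.5, 396 and 416, against 565, 580.5, 625, 559 and 578. HOXA11 had 80.9, 81.05, 95.2, 72.4 and 83.6, against 273, 277, 267, 252 and 288. None of these 3 genes passed the trend test in either line.

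Among the HOXB genes of the PAX3-FOXO1-FKBP line with a mean of at least 50, HOXB7 lay furthest above DMSO. HOXB7 had 887, 1300, 1262, 953 and 1408, against 893, 838, 989, 708 and 1127, with log2 changes of 0.55, 0.51, 0.10 and 0.67 in the PAX3-FOXO1-FKBP line and no trend (adjusted p = 0.549). It was lower at 24 h than at 6 and 72 h in both lines. HOXB2 had 571, 624, 475, 455.5 and 524, against 697, 669.8, 653, 636.5 and 710. HOXB3 had 638, 622, 651, 516 and 498, against 590.3, 631, 584, 578 and 634. Neither was called, and HOXB3 was lower at 24 and 72 h in the PAX3-FOXO1-FKBP line (unadjusted p = 0.0455, adjusted p = 0.278). HOXB4 had 529, 527, 633, 481 and 523.5, against 465, 422, 448, 379 and 482. HOXB5 had 177, 173, 169, 119 and 231, against 181.5, 159, 179, 177 and 220.2. HOXB6 had 224, 306, 227, 188 and 219, against 171, 154, 148.5, 159 and 161. These 3 genes ended within a log2 change of 0.38 of DMSO in the PAX3-FOXO1-FKBP line. HOXB13, higher in every clone than in parental cells, had 901, 903, 913, 817 and 823, against 752, 673, 756, 765.5 and 835, with no trend in the PAX3-FOXO1-FKBP line (adjusted p = 0.616).

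The HOXC and HOXD genes with a mean of at least 50 lay within a log2 change of 0.45 from DMSO at every time in the PAX3-FOXO1-FKBP line. HOXC4 had 574, 632, 732.5, 613.5 and 636, against 479.6, 462, 524, 431.5 and 508. HOXC6 had 411, 474, 557, 546 and 516, against 287, 271, 283, 314 and 319. HOXC9 had 409, 469, 521, 373.5 and 499, against 263, 275, 284, 212 and 314. All 3 were higher at 2 and 6 h than in DMSO in the PAX3-FOXO1-FKBP line, with no call. HOXC10 had 272, 287, 280.3, 307 and 249, against 49.99, 35.2, 38.2, 37.1 and 55.5. HOXC11 had 118, 125, 130, 138 and 117, against 48.25, 40.95, 61.6, 45.7 and 67.3. HOXC13 had 124, 125, 122, 119.8 and 126, against 50.3, 47.9, 67.01, 50.4 and 53.98. HOXC10, HOXC11 and HOXC13 lay within a log2 change of 0.23 from DMSO at every time in the PAX3-FOXO1-FKBP line. HOXD8 had 237, 194, 243, 286 and 324, against 147, 147, 162, 149.6 and 168.5 (unadjusted p = 0.0314 and adjusted p = 0.234 in the PAX3-FOXO1-FKBP line). HOXD9 had 268, 303, 338, 328.5 and 303, against 128.5, 163, 186, 135 and 191.5. HOXD13 had 308, 277, 307, 288 and 265, against 206, 173, 211, 180.2 and 187. HOXD11, near silent in clone 4, had a mean below 50, with 48.8, 43.9, 47.8, 52.8 and 38.01 against 25.4, 25.4, 21.15, 25.7 and 17.5. Of the other members below that mean, HOXA6, HOXA9, HOXA13, HOXB8, HOXC5, HOXC8, HOXD1 and HOXD10 lay between 3.86 and 46.4 normalised counts in every PAX3-FOXO1-FKBP column, HOXC12 and HOXD12 at 0 to 5.99, and HOXB1, HOXD3 and HOXD4 at 0 to 1.07. In the FOXO1-FKBP columns these 3 sets lay at 1.01 to 29.9, 0 to 1.77 and 0 to 0.618.

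**Figure D5:**
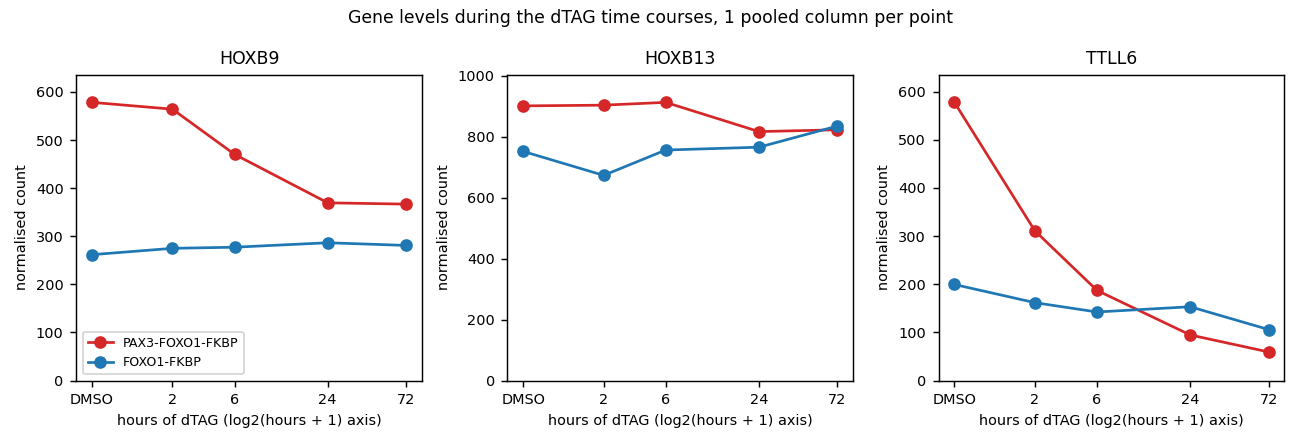
Normalised counts of HOXB9, HOXB13 and the neighbouring gene TTLL6 with DMSO and after dTAG for 2, 6, 24 and 72 h, in PAX3-FOXO1-FKBP and FOXO1-FKBP cells, 1 pooled column per point. HOXB9 falls to 366.8 at 72 h in the PAX3-FOXO1-FKBP line, and TTLL6 falls to 59.3.

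A gene beside the HOXB cluster fell much further than any HOX gene. TTLL6, a tubulin polyglutamylase gene next to HOXB13, had 577.5, 311, 187, 94.65 and 59.3 in DMSO and at 2, 6, 24 and 72 h in the PAX3-FOXO1-FKBP line, with log2 changes of -0.89, -1.61, -2.58 and -3.24 (slope -0.54, edgeR adjusted p = 0.000537). In the FOXO1-FKBP line it had 199, 162, 142, 153 and 106 (adjusted p = 0.862, and 0.018 without the 24 h column). The slopes differed between the lines (adjusted p = 0.00186), a call lost without the DMSO columns (0.108). HOXB13 itself, on the same side of the cluster, was not called. Against parental cells TTLL6 had 13 and 5.79 for clone 4, 266 and 199.5 for clone 10, 24.2 and 26.7 for clone 11, 40.7 and 69.1 for clone 12 and 44.2 and 64.02 for parental cells, with log2 fold changes of -2.50 in clone 4, 2.1 in clone 10 and -1.1 in clone 11, all called, and no call in clone 12. Among the 19 tested neighbours of the 4 clusters, TTLL6 was the 1 gene with a trend, where 4.54% of all genes had one. Of these neighbours, 3 higher and 7 lower, 8 and 6, 3 and 7, and 9 and 5 were called in clones 4, 10, 11 and 12, beside 47.4% to 52.6% of all genes called in either direction. Their medians were -0.14, 0.23, -0.02 and 0.33.

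Some non-coding genes inside the clusters were called as well. Of 6 tested, 1 was higher and 2 lower in clone 4, 0 and 1 for clone 10, 0 and 2 for clone 11, and 1 and 0 for clone 12, beside 47.4% to 52.6% of all genes called in either direction, and 0 of 5 had a trend after dTAG in either line. Their medians were -1.10, -0.00, -0.47 and 0.46 in clones 4, 10, 11 and 12. HOXD-AS1 was lower in clone 11 too, at 8.07 and 4.005 in clone 11, against 46.7 and 37.8 in parental cells (log2 fold change -2.71, adjusted p = 0.000807), where HOXD8 was not called. HOTAIR, between HOXC11 and HOXC12, had 7.585 and 15.05 in clone 4, against 38.5 and 32.01 in parental cells (log2 fold change -1.64, adjusted p = 0.00497). HOTAIRM1, beside HOXA2, had 20.9 and 36.1 in clone 10, against 72.9 and 69.8 in parental cells (log2 fold change -1.34, adjusted p = 0.00275). HOXA2 was lower in the same clone. HOXA2 was also lower in clones 4 and 12, where HOTAIRM1 lay on different sides of the parental libraries. HOTAIRM1 had 49.84 and 49.78 in clone 4 and 87.5 and 78.5 in clone 12. HOXB-AS5 was higher in clone 4, at 17.3 and 24.3, and clone 12, at 40.7 and 50.25, against 6.55 and 5.82 in parental cells (log2 fold changes 1.73 and 2.86, adjusted p = 0.00787 and 0.00031).

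The TALE cofactors of the HOX proteins all passed the filter on low counts. Of 9 tested, 1 was higher and 2 lower in clone 4, 0 and 2 for clone 10, 1 and 2 for clone 11, and 0 and 3 in clone 12. Of all genes, 47.4% to 52.6% were called in either direction in these contrasts. MEIS1 was lower in clone 4, at 110.5 and 103 in clone 4, against 175 and 160 in parental cells (log2 fold change -0.65, adjusted p = 0.0129), and in clone 10, at 91.01 and 92.4 (-0.87, 0.00261). MEIS3 was higher in clone 11, at 1255 and 1739 in clone 11, against 574 and 578 in parental cells (1.38, 0.000204). The median of the 9 genes was 0.09, -0.03, -0.24 and -0.39 in clones 4, 10, 11 and 12, and none had a trend in either line. Of 31 Polycomb genes, 9 were higher and 9 lower in clone 4, 8 and 10 for clone 10, 4 and 12 for clone 11, and 6 and 13 for clone 12, beside 47.4% to 52.6% of all genes called in either direction, with median log2 changes of 0.02, -0.12, -0.27 and -0.15. SUZ12, a core subunit of the complex that methylates histone H3 at lysine 27, had 1236 and 1312 for clone 4, 1155 and 1265 for clone 10, 662 and 443 for clone 11, 933 and 1290 for clone 12 and 2569 and 2535 for parental cells, with log2 fold changes of -1.0, -1.08, -2.20 and -1.20 in clones 4, 10, 11 and 12 and adjusted p-values up to 0.00197. RING1, an H2A ubiquitin ligase gene, had 1436 and 1626 for clone 4, 1248 and 1336 for clone 10, 1431 and 1749 for clone 11, 1596 and 1563 for clone 12 and 718 and 707 for parental cells, with log2 fold changes of 1.1, 0.86, 1.16 and 1.15 and adjusted p-values up to 0.000623. SUZ12 was thus lower and RING1 higher in every clone, patterns found in 9.5% and 8.4% of all genes. RNF2, another H2A ubiquitin ligase gene of this list, went the other way from RING1. It was lower in every clone, with log2 fold changes of -0.59, -0.76, -0.91 and -0.93 and edgeR adjusted p-values up to 0.0285. Among Trithorax and H3K27 demethylase genes, 4 higher and 1 lower, 4 and 2, 2 and 7, and 3 and 3 of 18 were called in clones 4, 10, 11 and 12, beside the same 47.4% to 52.6% of all genes. Their medians were 0.21, 0.21, -0.47 and -0.05, and none had a trend. In the PAX3-FOXO1-FKBP line PHF19, a Polycomb accessory gene, was the 1 Polycomb gene called, with 1716, 1506, 1435, 1272 and 1043 (adjusted p = 0.0349).

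Retinoic acid induces anterior HOX genes in embryos, and some genes that handle it fell with dTAG time in PAX3-FOXO1-FKBP cells. Of 7 tested genes of the ParaHox, EVX and retinoid list, 2 were called with a fall after dTAG and 0 with a rise. Of all genes, 2.13% were called with a fall and 2.41% with a rise. Without a call, RARA had 2710 in DMSO and 4581 at 72 h, and CRABP2 had 99.2 and 205.6. The 17 listed genes together summed to 6681 in DMSO and 7931 at 72 h. STRA6, a retinol transporter gene, had 299.6, 176, 166, 78.6 and 69.7 in DMSO and at 2, 6, 24 and 72 h (adjusted p = 0.00555), and its slope differed from that of the FOXO1-FKBP line (adjusted p = 0.00441), a call kept in 7 of 9 settings. CYP26B1, a retinoic acid hydroxylase gene, had 713, 740, 676, 497 and 378 (adjusted p = 0.0396), and the difference of its slope from that of the FOXO1-FKBP line did not pass (adjusted p = 0.272, and 0.225 to 0.734 over 9 settings). The STRA6 trend was lost without the DMSO column (0.116), and those of CYP26B1 and PHF19 passed in 5 of 9 settings. Against parental cells 2 of the 7 tested genes of the list were higher and 3 lower in clone 4, 4 and 2 for clone 10, 3 and 1 for clone 11, and 3 and 1 for clone 12, beside 47.4% to 52.6% of all genes called in either direction. Their medians were -0.29, 0.71, 0.27 and -0.02. CDX1, CDX2 and CDX4, the homeobox genes that induce central HOX genes in embryos, had 0 counts in all clone and parental libraries.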

How the data were processed

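RNA sequencing of 30 samples was used, with 2 samples in each of 15 groups. For clones and parental cells the authors deposited raw counts, 1 column per library. For the time course they deposited estimated counts, 1 column per condition per the file headers, so that the 2 samples of a condition are pooled, and they were rounded to whole numbers for tests. Trimmomatic 0.32, Bowtie2, Cuffdiff 2.1.1 and hg19 are named, with no role, in the submitters' processing notes. Libraries numbered 1 and 2 are called first and second. The clone 12 columns carry 1 and 2 where the labels have other numbers, and no column was matched to a sample of that clone.

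Clone libraries were tested with edgeR 4.0.16 in R 4.3.3 (quasi-likelihood F test over all 10 libraries, TMM scaling, filterByExpr with a minimum count of 10, 5 residual degrees of freedom), with Benjamini-Hochberg adjustment over 14175 genes and a threshold of 0.05. Fitted folds of genes at or near 0 depend on the prior count, so bounds use a floor of 3 counts. The time-course design had assumed library columns, so with pooled columns a size rule was used: 2-fold from DMSO on normalised counts plus a prior of 2, with a mean of at least 50. Trends were edgeR slopes on log2 of hours plus 1, with 3 residual degrees of freedom per line and 6 for the difference between lines. Genes at an exact 0 in 1 or more columns with at least 10 counts in the others were left out as failed estimates. DESeq2 1.42.0, other scalings, no filter and leaving out each library were alternatives. Procedures were also run on simulated data with the same spread in every library. The parental and clone pairs differed in spread, so that run cannot show how the tests behave here. Promoter windows and gene order came from RefSeq on GRCh38.p14 and lengths from GENCODE v29, matched by symbol for 39 of 39 members.

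Members and gene lists were chosen with earlier results of these data known. Results of 1 member are not reported here, though counts over members include it. Every other member was to be accounted for, with values in every library or column for members that passed the filter or the mean of 50, and up to 3 called members each way were to be named from a list.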

Additional observations from a re-analysis of the deposited data

Results flagged for a closer look

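8 members were called in opposite directions in different clones. The difference among the 4 clones was tested in the same libraries (edgeR, 3 degrees of freedom between clones, adjusted over all genes tested). The members were picked by opposite calls in that same fit, so this test gives those calls no separate support. The adjusted p among clones was 8.11e-06 for HOXB9, 1.13e-05 for HOXC6, 8.24e-05 for HOXC10, 9.96e-05 for HOXD8, 0.000127 for HOXB8, 0.000184 for HOXA11, 0.000262 for HOXD9 and 0.00211 for HOXC11. HOXB8, HOXB9 and HOXD8 were lower in clone 4 and higher in clone 12 than in parental cells. HOXC10 and HOXC11 were higher in clone 10 and lower in clone 11, and HOXA11 was lower in clone 10 and higher in clone 11. Opposite calls were found in 7.24% of all genes.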

How the results depend on the processing

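With 1 library left out in turn, the number of members called ran from 10 to 17 in clone 4, 8 to 16 in clone 10, 8 to 16 in clone 11, 9 to 16 in clone 12 and 22 to 26 among the clones. A group left with 1 library is assumed to vary like the others. The share of all genes called was not set beside the member counts of these alternative fits, so their changes cannot be read as particular to HOX genes. Deviations of same-numbered libraries correlated at 0.101 to 0.492 between clones and at 0.00702 to 0.0368 between clones and parental cells, so the numbers were not taken to pair clones with parental cells, and whether they pair the clones with each other is not settled. With the replicate block, for which clone 12 shares no number with the others and was left out, 17, 15 and 13 members were called in clones 4, 10 and 11 and 23 among the clones, against 16, 14, 14 and 22 without clone 12 and without the block. The trend of the PAX3-FOXO1-FKBP line called 0 members without the 2 h, 6 h, 72 h or DMSO column, against 1 with all columns, and the difference in slope called 1 with DESeq2, against 0 with edgeR. With a minimum mean of 10, 2 members lay 2-fold below DMSO at 72 h in the PAX3-FOXO1-FKBP line, HOXA6 with a log2 change of -1.30 and HOXD10 with -1.01. Over single members, 1816 values kept direction and side of the threshold, 92 lost and 76 gained a call in the clones, with 852, 4 and 1 in the trends, and no called direction turned round. Leaving out the DMSO column, the mean of 50 for trends and the fit without clone 12 were chosen after seeing the data. Leaving out a sample or pairing samples was not run in the time course, whose columns are pooled.

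The parental pair lay much closer together than the clone pairs, counts under about 10 per library allow no call for 7 members in the clones, and pooled columns give no replicate error.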
